A study of Mus musculus with 6 samples.

Results

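The subtelomeric ends of the mouse autosomes were taken as the last 2 Mb of each autosome, counted back from the highest CpG position listed on it. Members were CpG sites in these ends with at least 5 reads in each of 3 lines and at most 80 reads in the SETD2 knockout, 40 with DNMT3B1 and 45 with DNMT3A2. They numbered 117303 of 20782144 listed sites, and 297029 sites lay in the ends before the coverage limits. Whole-genome bisulfite sequencing, in which unmethylated cytosines are converted and methylated ones are read as C, was carried out on embryonic stem cells of 3 genotypes. The first line lacked DNMT1, DNMT3A, DNMT3B and SETD2 and expressed DNMT3B1. The second lacked DNMT1, DNMT3A and DNMT3B and expressed DNMT3B1, an isoform of DNMT3B, and the third had the same triple deletion and expressed DNMT3A2, a short isoform of DNMT3A. All 3 therefore lacked DNMT1, which copies methylation onto newly made strands. Cells were kept on feeder cells or gelatine with LIF, and neither the promoter nor the amount of the reintroduced enzymes is stated in the labels. The labels name 2 runs of sequencing for a line but no cultures grown apart. Each line therefore counts as 1 library, and no p-value was computed. Intervals of unmatched levels cover counting error only. The other intervals also cover the spread between clusters of CpGs 500 bp wide, which are taken as independent. They do not cover differences between larger regions or between autosomes, and none covers differences between cultures.

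Mouse chromosomes carry the centromere close to one tip, so the highest positions lie towards the distal telomere. DNA next to telomeres is normally methylated by DNMT3A and DNMT3B, and in humans loss of DNMT3B function leaves subtelomeric and pericentromeric repeats undermethylated. SETD2 places the trimethyl mark on lysine 36 of histone H3 along transcribed genes, and the PWWP domain of DNMT3B binds that mark. The telomere repeat itself is not part of the values, and distances are from the last listed CpG.

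The ends are not uniform DNA, and the RefSeq promoters (GRCm38.p6) that could be placed on the files' mm9 positions by the spacing of their CpGs show their extremes. In the ends, 275 placed promoters had at least 5 passing sites. No methylated read was seen in 109 of them in the SETD2 knockout, 211 with DNMT3B1 and 208 with DNMT3A2. These made up 39.6%, 76.7% and 75.6% of the placed end promoters, against 44.8%, 81.4% and 76.1% of all placed promoters. Only 4, 5 and 7 of the 275 reached 5% in the same order. These are 1.45%, 1.82% and 2.55% of the placed end promoters, against 3.57%, 1.25% and 3.84% of all placed promoters. Promoters of 4 genes are printed because the contrast between a bare promoter and its surroundings recurs in the results. Fasn, on the minus strand of chr11:120685812-120686111 (mm9), encodes fatty acid synthase. Ube2j2, on the plus strand of chr4:155317672-155317971, encodes a ubiquitin-conjugating enzyme of the endoplasmic reticulum. Fscn2, on the plus strand of chr11:120222598-120222897, encodes an actin-bundling protein of the retina. Krt78, on the minus strand of chr15:101784669-101784968, encodes a keratin. Each sequence runs 5′ to 3′ along the gene, and capitals mark CpGs.
Fasn: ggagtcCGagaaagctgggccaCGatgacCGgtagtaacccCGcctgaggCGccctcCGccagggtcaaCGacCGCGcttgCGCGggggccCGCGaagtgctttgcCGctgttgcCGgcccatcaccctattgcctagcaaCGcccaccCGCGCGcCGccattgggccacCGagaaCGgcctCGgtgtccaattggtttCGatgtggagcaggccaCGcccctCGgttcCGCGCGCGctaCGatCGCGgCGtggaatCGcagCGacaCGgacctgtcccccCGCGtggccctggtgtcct
Ube2j2: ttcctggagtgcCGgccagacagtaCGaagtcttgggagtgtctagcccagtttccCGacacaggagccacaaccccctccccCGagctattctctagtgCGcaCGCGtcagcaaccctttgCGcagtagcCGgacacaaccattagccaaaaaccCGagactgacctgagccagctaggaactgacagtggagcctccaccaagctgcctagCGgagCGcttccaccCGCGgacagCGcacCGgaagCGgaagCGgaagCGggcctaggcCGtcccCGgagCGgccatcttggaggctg
Fscn2: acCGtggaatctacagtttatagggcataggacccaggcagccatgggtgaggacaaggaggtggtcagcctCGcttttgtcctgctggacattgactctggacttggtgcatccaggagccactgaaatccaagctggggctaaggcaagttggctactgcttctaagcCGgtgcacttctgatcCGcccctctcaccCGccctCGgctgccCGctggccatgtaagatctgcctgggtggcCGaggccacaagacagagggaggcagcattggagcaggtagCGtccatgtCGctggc
Krt78: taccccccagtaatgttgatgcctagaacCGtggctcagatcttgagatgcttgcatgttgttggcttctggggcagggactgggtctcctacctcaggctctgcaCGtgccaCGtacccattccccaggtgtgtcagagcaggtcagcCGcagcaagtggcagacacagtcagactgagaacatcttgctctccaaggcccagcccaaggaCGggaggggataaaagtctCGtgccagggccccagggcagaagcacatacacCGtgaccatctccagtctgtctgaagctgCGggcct
The Fasn promoter, with 39 CpGs in 300 bases, was methylated in 3 of 1352 reads in the SETD2 knockout, 2 of 676 with DNMT3B1 and 0 of 763 with DNMT3A2. The Ube2j2 promoter, with 22 CpGs, had no methylated read in any line, among 594, 289 and 374 reads in the same order. The Fscn2 promoter has 10 CpGs and with DNMT3A2 had the highest level of the placed promoters of the ends with at least 5 passing sites. It was at 6.04% in the SETD2 knockout (22 of 364 reads), 5.28% with DNMT3B1 (13 of 246) and 18.1% with DNMT3A2 (36 of 199). The Krt78 promoter, with 8 CpGs, reached 4.0% in the SETD2 knockout (4 of 100 reads), 10.8% with DNMT3B1 (9 of 83) and 15.2% with DNMT3A2 (15 of 99). Of these 4, the pair with few CpGs was methylated in each line, and the pair with many was bare or nearly so. The 4 were picked by hand, so they do not show how the level goes with CpG number. A promoter with few CpGs could also be bare. That of Eef1a2, with 8 CpGs, had no methylated read among 321, 218 and 127 reads in the same order of lines.

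The ends held 39.5% of their listed sites after the coverage limits, against 40.1% in the region 10 to 20 Mb from the end, called the interior below. Mean coverage of passing end sites was 20.2 reads in the SETD2 knockout, 13.4 with DNMT3B1 and 13.7 with DNMT3A2, and interior sites had 18.7, 12.5 and 12.9. CpG-dense DNA was more common in the ends, where 12.5% of passing sites had 60 or more CpGs in the surrounding 1 kb, against 7.53% in the interior. Sparse DNA was also more common, with 6.95% of end sites at 1 to 4 CpGs per kb against 2.79%. The whole files held 188661576 CpG reads for DNMT3B1 and 200364080 for DNMT3A2 over 20782144 listed sites. The SETD2 knockout had 200947834 over 9293499 sites, because only sites with at least 10 reads were listed for it. Its total and its mean coverage are therefore not on the same footing as those of the other lines. As methylation follows CpG density closely in these lines, levels of the ends were set against interior levels at the same density.

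The first comparison asked whether the ends were more or less methylated than the interior. They were less methylated in every line, and most so with DNMT3A2. Unmatched levels were 5.29% of reads in the ends and 6.07% in the interior in the SETD2 knockout, 2.56% and 2.90% with DNMT3B1, and 6.16% and 7.73% with DNMT3A2. At matched density the level of the ends was 0.944 times that of the interior in the SETD2 knockout (95% interval 0.932 to 0.956), 0.960 times with DNMT3B1 (0.940 to 0.982) and 0.897 times with DNMT3A2 (0.884 to 0.910). The mean over the 19 autosomes was lower than this pooled ratio and below its interval in each line. It was 0.916 ± 0.115 in the SETD2 knockout, 0.889 ± 0.149 with DNMT3B1 and 0.810 ± 0.197 with DNMT3A2 (SD over autosomes). The pooled ratio weights autosomes by their sites, and the ends of chromosomes 4 and 11 hold 17485 and 20768 of them. At a minimum of 10 reads the DNMT3B1 ratio was 0.972, with an interval up to 1.00. Against all of the autosomes outside the ends, the ratio was 0.978 in the SETD2 knockout (0.966 to 0.990), 1.01 with DNMT3B1 (0.991 to 1.03) and 0.935 with DNMT3A2 (0.922 to 0.947). The pooled DNMT3B1 difference did not hold there, although 13 autosomes lay below 1 and 6 above, as against the interior.

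**Figure D1:**
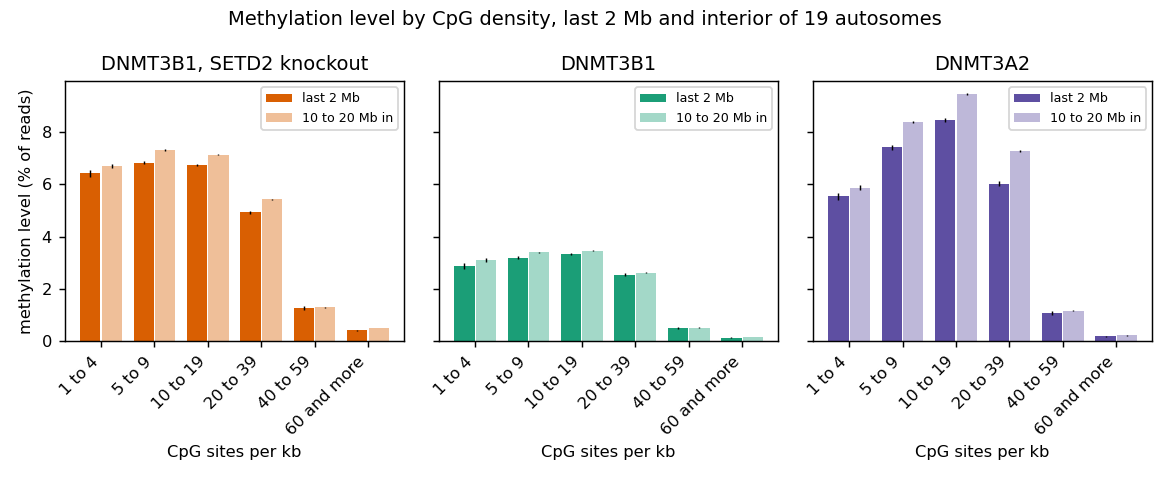
Methylation level (% of reads) of CpG sites in the last 2 Mb (full colour, left bar) and 10 to 20 Mb in (pale, right bar) by number of CpG sites in the surrounding 1 kb, for 3 lines, with exact 95% binomial intervals. The end bar is lower than the interior bar in every class of each line, with overlapping intervals at 40 to 59 in each line.

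The lower level of the ends was seen in each class of CpG density, though not always clear of the intervals. At 40 to 59 CpGs per kb the ratios were 0.980 in the SETD2 knockout, 0.974 with DNMT3B1 and 0.927 with DNMT3A2. The intervals of end and interior overlapped there in each line, and at 60 or more CpGs with DNMT3B1. At 20 to 39 CpGs per kb, the levels of the ends and the interior were 4.93% and 5.42% in the SETD2 knockout, 2.54% and 2.63% with DNMT3B1, and 6.02% and 7.28% with DNMT3A2. The ratios in this class were 0.910 in the SETD2 knockout, 0.966 with DNMT3B1 and 0.826 with DNMT3A2. The order of the lines was not the same in all classes. At 1 to 4 CpGs per kb the ratios were 0.958, 0.927 and 0.943 in the same order. At 60 or more CpGs per kb, where CpG islands lie, the ends had 0.414% and the interior 0.508% in the SETD2 knockout, 0.131% and 0.153% with DNMT3B1, and 0.186% and 0.228% with DNMT3A2. The ratios of this class were 0.815, 0.852 and 0.815. Levels this low include any cytosine that escaped conversion. The first 2 Mb of the autosomes, at the centromere-proximal side, were also below the region 10 to 20 Mb further along, with ratios of 0.936 in the SETD2 knockout, 0.941 with DNMT3B1 and 0.956 with DNMT3A2. At matched density the distal ends were above these first 2 Mb, by 1.11, 1.14 and 1.05 times in the same order, so a lower level was not particular to the distal side. This held on 12 autosomes in the SETD2 knockout and 12 with DNMT3B1, but on 8 with DNMT3A2, where 11 lay the other way.

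**Figure D2:**
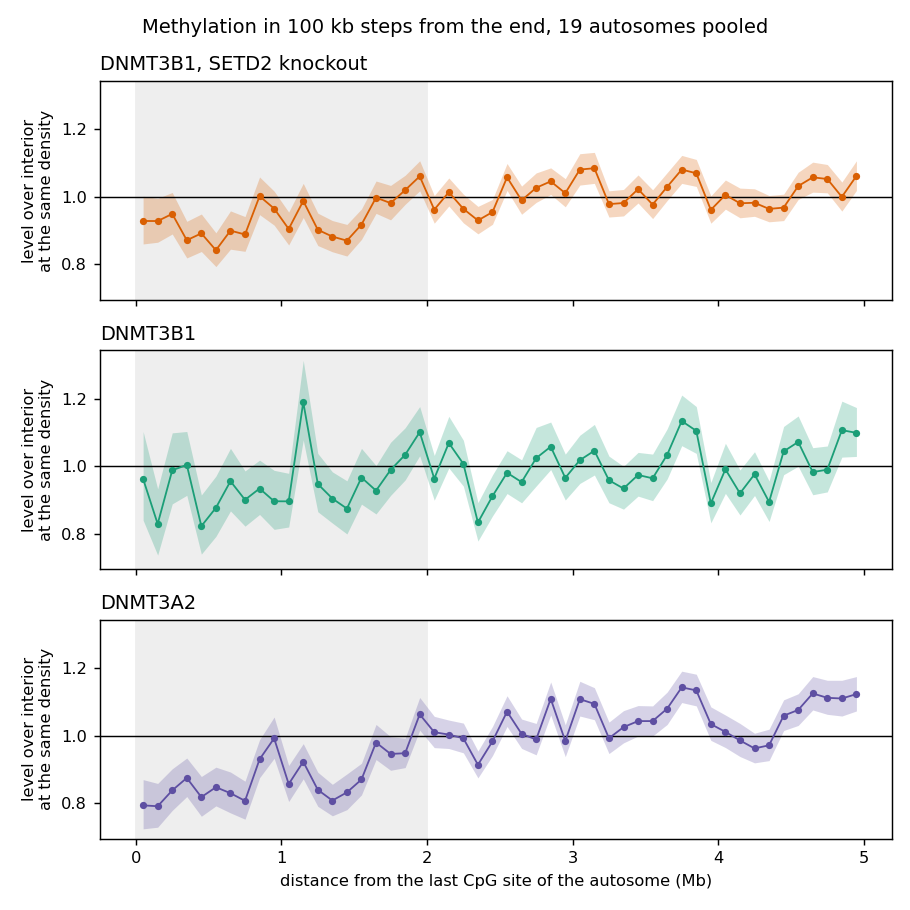
Observed over expected level (expected from the interior at the same CpG density) in 100 kb steps by distance from the last CpG site, 19 autosomes pooled, with 95% intervals as bands, and the last 2 Mb shaded. DNMT3A2 points lie below 1 in 19 of the 20 shaded steps, and the DNMT3B1 point at 1100 to 1200 kb stands at 1.19.

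The second comparison followed the level in 100 kb steps from the end. Relative to the interior, the outermost 1 Mb was lower than the next 1 Mb in all 3 lines. The median of its 10 steps was 0.914 times the interior in the SETD2 knockout, 0.917 with DNMT3B1 and 0.833 with DNMT3A2, and that of the next 10 steps was 0.950, 0.957 and 0.896. Between 2 and 3 Mb the medians were 1.00, 0.973 and 0.997, close to the interior. They were 1.01, 0.990 and 1.07 at 3 to 5 Mb, and 1.05, 1.04 and 1.09 at 5 to 10 Mb. Of the 20 steps of the ends, 17 lay below the interior in the SETD2 knockout, 16 with DNMT3B1 and 19 with DNMT3A2. Of the 100 steps of the interior itself, 45, 53 and 47 lay below its mean level in the same order. The lowest interior steps stood at 0.878, 0.781 and 0.814, and with DNMT3A2 27 of the 100 had an interval below 1.

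The outermost 100 kb had levels of 5.22% in the SETD2 knockout, 2.55% with DNMT3B1 and 5.26% with DNMT3A2. These were 0.929 (0.860 to 1.00), 0.962 (0.840 to 1.10) and 0.793 (0.724 to 0.869) times the interior, and of 17 autosomes with at least 50 sites there, 2, 5 and 1 were above it. The lowest step of the DNMT3A2 line was the next one, at 0.790 (0.728 to 0.858). The DNMT3B1 line had its lowest step at 400 to 500 kb, at 0.822 (0.739 to 0.915). The step just inside the 2 Mb limit stood at 1.06 in the SETD2 knockout, 1.10 with DNMT3B1 and 1.06 with DNMT3A2, and the step just outside it at 0.962, 0.963 and 1.01. The share of sites that passed the coverage limits was 26.2% in the outermost 100 kb and 49.5% in the step at 1900 to 2000 kb, and its part in the profile was not tested.

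The highest step of the ends was that of DNMT3B1 at 1100 to 1200 kb, with 1.19 times the interior level (1.08 to 1.31), against 0.988 in the SETD2 knockout and 0.922 with DNMT3A2. Steps of the interior ranged from 0.781 to 1.18 with DNMT3B1, nearly as far. The high value rested on chromosome 11. Without it the DNMT3B1 value was 0.950 (0.871 to 1.04), and this window of chromosome 11 holds Fasn, which is described further on.

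**Figure D3:**
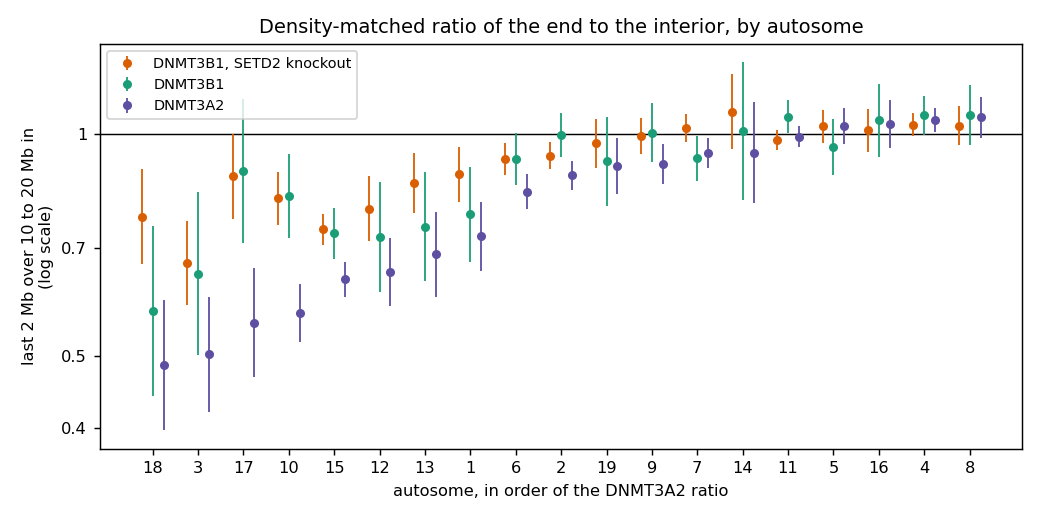
Density-matched ratio of the last 2 Mb to the region 10 to 20 Mb in, for each autosome and line, on a log scale with 95% intervals, ordered by the DNMT3A2 ratio. The lowest DNMT3A2 values, 0.486 to 0.573, belong to chromosomes 18, 3, 17 and 10.

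The third comparison was between autosomes, and it showed that the lower level was a property of some ends and not of others. The ratio of end to interior lay below 1 on 13 of 19 autosomes in the SETD2 knockout, on 13 with DNMT3B1 and on 15 with DNMT3A2, and its interval lay wholly below 1 on 9, 8 and 13. On chromosome 18 the ratio was 0.773 in the SETD2 knockout, 0.576 with DNMT3B1 and 0.486 with DNMT3A2. On chromosome 3 it was 0.668, 0.647 and 0.503 in the same order of lines. The end of chromosome 15 was low in all 3 lines as well, at 0.743, 0.734 and 0.636, with 11056 sites and 36 genes with a placed promoter, so that a low ratio was not confined to sparse ends. Chromosome 12 was among the lowest with DNMT3B1, at 0.726 (0.611 to 0.862).

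The end of chromosome 17 was low with DNMT3A2, at 0.556 (0.468 to 0.659), but stood at 0.876 in the SETD2 knockout (0.768 to 1.00) and 0.891 with DNMT3B1 (0.712 to 1.12). At the other extreme, chromosome 4 had ratios of 1.03, 1.06 and 1.04 in the SETD2 knockout, DNMT3B1 and DNMT3A2 lines, and chromosome 8 had 1.03, 1.06 and 1.05. Without density matching the end of chromosome 4 was at 0.916, 0.951 and 0.926 times its interior, with an interval that included 1 for DNMT3B1. The highest ratios also included chromosome 14 in the SETD2 knockout, at 1.07, chromosome 11 with DNMT3B1, at 1.06, and chromosome 16 with DNMT3A2, at 1.03. Of these high ends, the interval excluded 1 on chromosome 11 with DNMT3B1 (1.002 to 1.11) and on chromosome 4 with DNMT3A2 (1.01 to 1.09). In the last 1 Mb alone, chromosome 4 stood below the interior, at 0.906 in the SETD2 knockout and 0.923 with DNMT3A2, and so did chromosome 8, at 0.771 with DNMT3B1 and 0.681 with DNMT3A2.

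The order of the ends was much alike in the 3 lines. Across the 19 autosomes, Pearson's r between log2 ratios was 0.89 for the SETD2 knockout with DNMT3B1, 0.91 for the SETD2 knockout with DNMT3A2 and 0.89 for DNMT3B1 with DNMT3A2. Spearman's rho was 0.90, 0.92 and 0.92 in the same order. These are descriptions, since the lines share the same sites. The ends differed in CpG content, with 4.58 sites per kb on chromosome 17 and 14.9 on chromosome 4. The log2 ratio went with that content, with r of 0.33 in the SETD2 knockout, 0.47 with DNMT3B1 and 0.51 with DNMT3A2. The share of sites that passed the coverage limits ranged from 8.85% on chromosome 18 to 77.9% on chromosome 11, and its part in these ratios was not tested. Mean coverage of the chromosome 11 end was also the highest, at 27.7 reads in the SETD2 knockout, 18.3 with DNMT3B1 and 18.9 with DNMT3A2. Each autosome was also divided into 2 Mb windows. Its end ranked among the lowest 25% of them on 6 of 19 autosomes in the SETD2 knockout, 5 with DNMT3B1 and 7 with DNMT3A2. By definition 25% of all such windows rank there, so these counts were not far above that share. The end stood above the median on 6, 9 and 5 autosomes.

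The fourth comparison set the lines against each other, as the log2 difference between their ratios of end to interior. Methylation by DNMT3B1 was less reduced at the ends than methylation by DNMT3A2. The pooled difference of DNMT3B1 over DNMT3A2 was 0.099 (0.064 to 0.13), and it was above 0 on 17 of 19 autosomes, with a mean of 0.16 ± 0.19 (SD over autosomes) and an interval above 0 on 6. It was highest on chromosome 17, at 0.68 (0.29 to 1.07), chromosome 10, at 0.52 (0.32 to 0.73), and chromosome 3, at 0.36 (-0.06 to 0.78), and lowest on chromosomes 5, 7 and 8, at -0.095, -0.022 and 0.0098. On chromosome 10 the density-matched levels of the end and the interior were 2.23% and 2.71% with DNMT3B1, and 4.24% and 7.40% with DNMT3A2. In the last 1 Mb alone the chromosome 10 difference was -0.044, with an interval from -0.55 to 0.46.

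The SETD2 knockout shared this with the DNMT3B1 line. Its difference from DNMT3A2 was 0.074 (0.049 to 0.099) pooled, with 0.21 ± 0.22 over autosomes and 14 of 19 above 0. The highest values were 0.67 on chromosome 18, 0.66 on chromosome 17 and 0.52 on chromosome 10, and the lowest were -0.038, -0.029 and -0.020 on chromosomes 8, 16 and 4. Against DNMT3B1, the SETD2 knockout showed no common direction. The pooled difference was -0.025 (-0.058 to 0.0079), and the mean over autosomes was 0.053 ± 0.13, with 10 above and 9 below 0. Chromosome 18 was highest, at 0.42 (0.013 to 0.83), followed by chromosome 13, at 0.20, and chromosome 1, at 0.18. Chromosome 11 was lowest, at -0.11 (-0.18 to -0.030), followed by chromosome 2, at -0.092, and chromosome 8, at -0.047. With all of the autosome outside the end in place of the interior, the pooled difference was -0.049 (-0.079 to -0.018).

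The fifth comparison located these differences in 100 kb windows. Of 380 windows in the ends 296 had at least 50 sites, and each was compared with the level that the line had autosome-wide at the same CpG densities. A window was called at 1.5-fold or more with a 95% interval that excluded no difference. The SETD2 knockout had 1 end window called higher (0.338%, against 0.507% of all autosomal windows) and 16 lower (5.41% against 3.54%). With DNMT3B1, 5 were called higher (1.69% against 2.75%) and 18 lower (6.08% against 6.89%), shares no larger than those of all windows. With DNMT3A2, 2 were called higher (0.676% against 1.39%) and 60 lower (20.3% against 14%). The windows called lower with DNMT3A2 lay on 17 of the autosomes.

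The lowest windows lay in DNA with 3.85 to 9.44 CpGs per kb. In the SETD2 knockout they were the last 100 kb of chromosome 8, at 0.255 times the expected level, the last 100 kb of chromosome 12, at 0.362 times, and chr17:93571931-93671930, at 0.470 times, which holds the promoter of Adcyap1, the gene of the neuropeptide PACAP. With DNMT3B1 they were the last 100 kb of chromosome 12, where 3 of 673 reads were methylated (0.175 times), the last 100 kb of chromosome 1, with 5 of 960 reads (0.182 times), and chr13:119584257-119684256, with 5 of 640 reads (0.248 times). The chromosome 12 window holds the promoter of the membrane protein gene Tmem196 and was at 0.197 times with DNMT3A2. With DNMT3A2 the lowest were chr13:118384257-118484256, with 5 of 830 reads (0.136 times), chr3:157899265-157999264, with 7 of 699 (0.154 times), and chr1:196995295-197095294, with 13 of 1266 (0.162 times), which holds the promoter of Cr2, a complement receptor of B cells. These rest on 51 to 110 sites each.

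The highest windows differed between lines in the genes they hold. With DNMT3B1 the highest was chr11:120643225-120743224, at 1.96 times the expected level (log2 0.97, 0.70 to 1.24). Levels there were 4.92% in the SETD2 knockout (1.12 times), 4.22% with DNMT3B1 and 5.87% with DNMT3A2 (1.05 times). Promoters of Fasn, Dus1l, Gps1 and Rfng were placed in it. The next were chr2:179848073-179948072, at 1.94 times, and chr19:60042410-60142409, at 1.64 times. With DNMT3A2 the highest were chr4:153829935-153929934, at 1.57 times, chr19:59742410-59842409, at 1.56 times, and chr4:153929935-154029934, at 1.46 times, which holds the promoter of Prdm16, a transcriptional regulator of brown fat and blood stem cells. Those of the SETD2 knockout were chr10:128593121-128693120, at 1.503 times, chr6:149216667-149316666, at 1.41 times, which holds the promoter of Resf1, a factor in retroelement silencing, and chr9:122375625-122475624, at 1.40 times. Of these highest windows, those under 1.5-fold had intervals above no difference but were not called. Windows without a placed promoter may still hold genes.

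**Figure D4:**
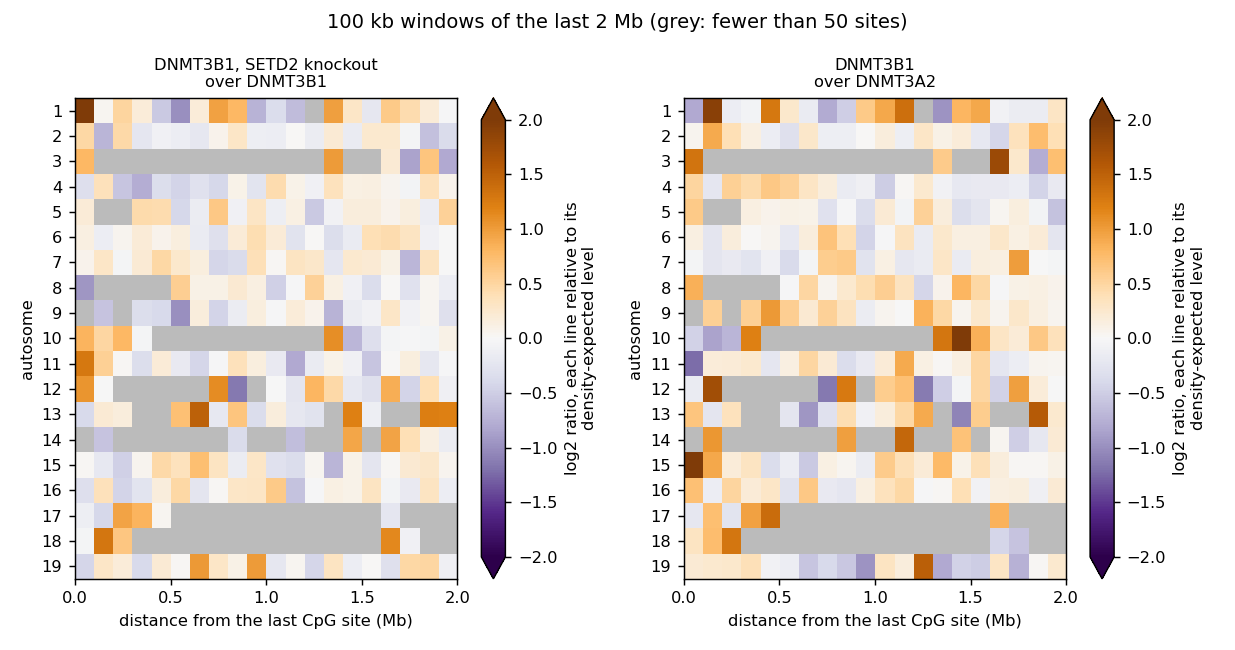
Log2 ratio of 2 lines, each relative to its density-expected level, in 100 kb windows of the last 2 Mb by autosome (rows) and distance from the last site, for the SETD2 knockout over DNMT3B1 (left) and DNMT3B1 over DNMT3A2 (right). Windows with fewer than 50 sites are grey, colours saturate at 2, and the right panel has 26 windows called higher and 2 called lower.

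Between lines, 26 end windows were called higher in DNMT3B1 over DNMT3A2 (8.78%, against 5.71% of all autosomal windows) and 2 lower (0.676% against 2.91%). The calls higher lay on 15 autosomes. The highest were chr10:128493121-128593120, at a log2 ratio of 2.86 (1.40 to 4.31), chr15:103394745-103494744, at 2.32 (0.08 to 4.57), chr1:196995295-197095294, at 1.91, chr3:157899265-157999264, at 1.78, and chr12:121057015-121157014, at 1.73. In the first of these, 37 of 922 reads were methylated with DNMT3B1 and 13 of 981 with DNMT3A2. These 5 windows thus rest on few methylated DNMT3A2 reads, from 7 to 13. The lowest were the last 100 kb of chromosome 11, at -1.23 (-2.45 to -0.01), chr19:60342410-60442409, at -0.97 (-1.88 to -0.06), and 3 windows short of 1.5-fold. Those 3 were chr4:154529935-154629934, at -0.51, with the promoters of Faap20 and of the SMAD corepressor gene Ski, chr4:153729935-153829934, at -0.44, and chr2:180048073-180148072, at -0.42, with the promoter of the transcription factor gene Gata5.

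In the SETD2 knockout over DNMT3B1, 5 end windows were called higher (1.69%, against 4.33% of all windows) and 9 lower (3.04% against 2.36%). At 2-fold, 1.01% were higher and none lower, and in windows of 200 kb 2.75% were higher and 1.65% lower, so the balance between the directions depended on the window and the call. The lowest were chr9:123475625-123575624, at -0.998 (-1.82 to -0.18), chr1:196595295-196695294, at -0.99 (-1.89 to -0.09), the Fasn window of chromosome 11, at -0.81 (-1.03 to -0.59), chr3:157599265-157699264, at -0.80 (-1.44 to -0.15), with the promoter of the splicing factor gene Srsf11, and chr4:155229935-155329934, at -0.78 (-1.08 to -0.48), with the promoters of Acap3, Pusl1 and Ube2j2. The highest were the last 100 kb of chromosome 1, at 2.11 (0.40 to 3.82), chr13:119584257-119684256, at 1.51 (0.04 to 2.98), and the last 100 kb of chromosome 11, at 1.29 (0.02 to 2.56). The DNMT3B1 line had 5, 5 and 15 methylated reads in these 3. Next came chr15:102794745-102894744, at 0.72 (0.14 to 1.30), with the promoter of the homeobox gene Hoxc4, and chr5:151736548-151836547, at 0.64 (0.18 to 1.09), with the promoter of the ageing-related gene Kl.

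Set against DNMT3A2, the SETD2 knockout had 27 end windows called higher (9.12%, against 7.84% of all windows) and 0 lower (0% against 0.77%). The highest were chr13:118384257-118484256, at 2.79, chr10:128593121-128693120, at 2.42, the last 100 kb of chromosome 15, at 2.34, chr10:128493121-128593120, at 2.17, and the last 100 kb of chromosome 3, at 2.12, with the promoter of Wls, which escorts Wnt proteins to the cell surface. The lowest with an interval below 0 were chr2:181148073-181248072, at -0.43, with the promoter of Tpd52l2, chr4:154629935-154729934, at -0.37, with that of the protein kinase gene Prkcz, and chr11:120143225-120243224, at -0.21, with those of Actg1 and Fscn2. The comparisons share lines and are given side by side for that reason.

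The sixth comparison asked what lies inside the genes of the ends, since DNMT3B binds the mark that SETD2 makes in transcribed gene bodies. Around 124 to 130 end genes of 15 kb or more, the level within 500 bp of the start was 0.443% in the SETD2 knockout, 0.210% with DNMT3B1 and 0.196% with DNMT3A2. At 10 to 15 kb downstream it was 1.06 times the density-expected level in the SETD2 knockout, 1.34 times with DNMT3B1 and 1.05 times with DNMT3A2. In the rest of the autosomes the same distance gave 0.971, 1.11 and 1.01 times. At 10 to 15 kb upstream of the end genes the values were 0.935, 0.903 and 0.865. These values pool reads over genes, so genes with many reads, such as Fasn, weigh most, and the value without Fasn was not computed.

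For each gene, the stretch from 2 to 15 kb downstream of its promoter was then compared between lines. This covered 102 end genes of 5504 with at least 20 sites. Relative to the density-expected level, the median log2 value of end genes was -0.20 in the SETD2 knockout, 0.084 with DNMT3B1 and -0.15 with DNMT3A2. For all genes it was -0.15, -0.083 and -0.11 in the same order. In DNMT3B1 over DNMT3A2 the median log2 ratio was 0.15 for the end genes and 0.023 for all genes, and 15 end genes were called higher (14.7%, against 9.03% of all genes) and 3 lower (2.94% against 5.67%). In the SETD2 knockout over DNMT3B1 the medians were -0.22 and -0.066, and 3 end genes were called higher (2.94% against 4.8%) and 10 lower (9.8% against 9.36%). In genes of 30 kb or more the median of DNMT3B1 over DNMT3A2 was 0.077.

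Fasn had the narrowest interval of the called genes. Across 303 sites of its stretch, 862 of 10381 reads were methylated in the SETD2 knockout (8.30%), 571 of 6301 with DNMT3B1 (9.06%) and 558 of 6775 with DNMT3A2 (8.24%), so that DNMT3B1 here had the highest level of the 3 lines although its level over all autosomes, 2.75%, was the lowest. Its log2 ratio was 1.58 (1.20 to 1.96) in DNMT3B1 over DNMT3A2 and -1.18 (-1.50 to -0.86) in the SETD2 knockout over DNMT3B1. The promoter printed above, upstream of this stretch, was almost free of methylation in all 3 lines.

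**Figure D5:**
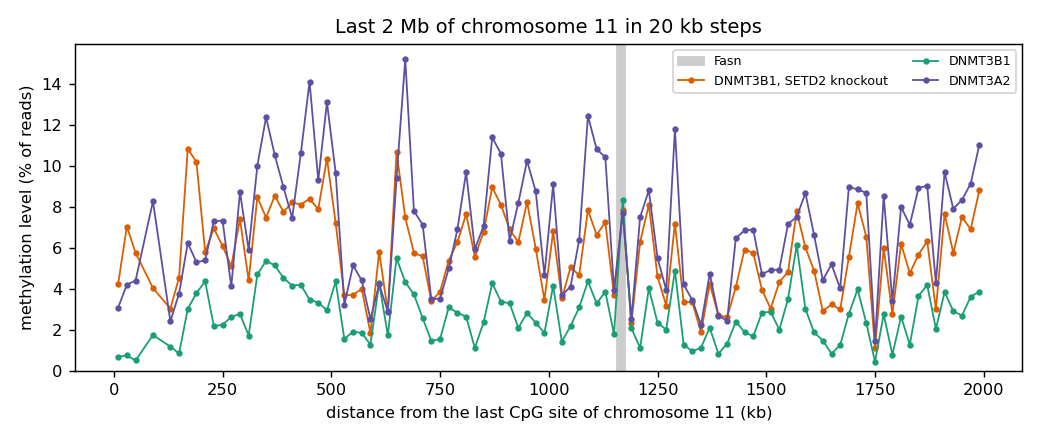
Methylation level (% of reads) in 20 kb steps of the last 2 Mb of chromosome 11 by distance from its last CpG site, for 3 lines, with the span of Fasn shaded (its promoter is 1157 kb from the last site). DNMT3B1 lies below both other lines in 96 of 98 steps and reaches their level at Fasn.

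Ube2j2, whose printed promoter was bare, had ratios in the same directions, from fewer reads. Its stretch was at 2.72% in the SETD2 knockout (47 of 1730 reads), 4.44% with DNMT3B1 (40 of 900) and 4.51% with DNMT3A2 (39 of 865). The log2 ratio was 1.39 (0.43 to 2.35) in DNMT3B1 over DNMT3A2 and -1.79 (-2.60 to -0.99) in the SETD2 knockout over DNMT3B1. Itga5, the fibronectin receptor subunit, had 6.58%, 6.96% and 6.22% in the SETD2 knockout, DNMT3B1 and DNMT3A2 lines, with log2 ratios of 1.56 and -1.18. Hgs, which sorts ubiquitinated cargo at endosomes, had 4.37%, 4.40% and 6.73%, with 0.85 and -1.10. Espl1, the protease separase that opens cohesin, had 5.12%, 4.64% and 6.36%, with 0.98 and -0.93. Cdk11b, a cyclin-dependent kinase, had 3.05%, 5.18% and 5.45%, with 1.36 and -1.84. For these genes and Fasn, both ratios use the same DNMT3B1 reads. A high DNMT3B1 level by itself raises the first ratio and lowers the second, so the 2 are not separate observations.

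The other genes called higher in DNMT3B1 over DNMT3A2 ranged from 0.71 to 2.35. They were Prpf6, a spliceosome component, at 2.35, Fyco1, an adaptor of autophagosome transport, at 1.96, B3galt5, a galactosyltransferase, at 1.35, Ythdf1, a reader of methylated adenosine in RNA, at 1.35, Hexdc, a hexosaminidase, at 1.15, Rtel1, a helicase that maintains telomeres, at 1.08, Pank4, at 1.00, Ccdc57, at 0.76, and Morn1, at 0.71. Prpf6 rests on 24 of 409 methylated reads with DNMT3B1 and 15 of 531 with DNMT3A2 (1.05 to 3.66). Fyco1 had 13 of 299 and 8 of 297 (0.45 to 3.47), and B3galt5 21 of 338 and 22 of 355 (0.08 to 2.61). The intervals of Ccdc57, from 0.073 to 1.45, and Morn1, from 0.056 to 1.37, came close to 0. Called lower were Pds5b, a cohesin regulator, at -1.76, Cfap74, a protein of cilia, at -0.92, and Slc38a10, an amino acid transporter, at -0.80. Pds5b had 46 of 723 methylated reads in the SETD2 knockout, 4 of 382 with DNMT3B1 and 34 of 391 with DNMT3A2.

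In the SETD2 knockout over DNMT3B1, genes called lower beside those above were Tcaim, at -3.57, Zfp445, a zinc finger protein that guards imprints, at -2.15, Lama5, a laminin chain, at -1.31, and Acap3, at -0.87. Zfp445 had 28 of 714 methylated reads in the SETD2 knockout (3.92%), 36 of 437 with DNMT3B1 (8.24%) and 50 of 453 with DNMT3A2 (11.04%). Tcaim rests on 3 of 426, 13 of 335 and 27 of 288 reads, and its interval ran from -6.96 to -0.18. Genes called higher were Dgka, a diacylglycerol kinase, at 0.84 (0.08 to 1.60), Cfap74, at 0.83 (0.35 to 1.31), and Bahcc1, at 0.78 (0.19 to 1.38). Transcription of these genes was not measured here. With the stretch cut to 5 to 15 kb, the intervals of Rtel1, Cdk11b and Ccdc57 in DNMT3B1 over DNMT3A2 included 0, and so did those of Cdk11b, Tcaim and Dgka in the SETD2 knockout over DNMT3B1.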

How the data were processed

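Bisulfite reads of 3 lines of mouse embryonic stem cells were analysed from the deposited values. Per the file headers, the series table gives the count of total reads and of methylated reads at each CpG for the DNMT3A2 and DNMT3B1 lines, with both strands on 1 line and no run named, so both runs of a line were treated as pooled. For the SETD2 knockout the deposited values hold both counts and their fraction for sites with at least 10 reads. The files of its 2 runs were identical and were used once. Reads were mapped to mm9, per the submitters' processing notes. The sources used here do not give the aligner, the methylation caller or the treatment of duplicates. Duplicates or repeat copies mapped to 1 place would enter the counts.

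Sites needed at least 5 reads in each line and at most 45 in DNMT3A2, 40 in DNMT3B1 and 80 in the SETD2 knockout. CpG density was the number of listed sites within 500 bp on each side, with 60 and more pooled. Levels of the interior were weighted by the share of end sites at each density. Intervals at 95% are exact (Clopper-Pearson) for unmatched levels, and otherwise rest on a ratio estimator with CpGs grouped into clusters of 500 bp. Where a window or stretch had no methylated read, 3 reads were used as a floor. The text names the 3 highest and 3 lowest autosomes per line and comparison, and among windows whose interval excludes no difference the 3 highest and 3 lowest per line and the 5 highest and 5 lowest per comparison between lines, fewer where fewer qualified.

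RefSeq promoters (GRCm38.p6) with at least 8 CpGs were placed where the listed sites show exactly their CpG spacing at 1 place of the autosomes. Of 15382 such promoters 13754 were placed, each on the chromosome that RefSeq gives. The promoters and the stretches downstream of them were added after window values had been seen. The regions, lists and settings were chosen with earlier results of these data known. The coverage limits, the density matching, the interior, the width of the end, the windows and the call were varied. Scripts ran under Python 3.11.15 with numpy 2.4.6, scipy 1.17.1, pandas 2.3.3 and, for figures, matplotlib 3.10.9.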

Additional observations from a re-analysis of the deposited data

Results flagged for a closer look

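The coverage maximum left out 84 CpG sites of the ends that exceeded it in every line. They are set apart because they carried methylated reads although only the setting without a coverage maximum used them. Pooled levels were 3.12% in the SETD2 knockout (1408 of 45079 reads), 1.44% with DNMT3B1 (340 of 23656) and 1.34% with DNMT3A2 (313 of 23277). Passing sites of the ends stood higher in each line, at 5.29%, 2.56% and 6.16% in the same order. Passing autosomal sites with 60 or more CpGs in the surrounding 1 kb stood at 0.463%, 0.153% and 0.210%. The CpG density of the 84 sites was not compared with either set. The 84 sites held 1.54%, 0.904% and 0.854% of all end reads in the same order. On chromosome 9, 46 of them lay between 231 and 704 kb from the last site, at 4.74% in the SETD2 knockout, 4.20% with DNMT3B1 and 2.25% with DNMT3A2. On chromosome 1, 18 sites within positions 197067784 to 197068079 were nearly free of methylation, at 0.358%, 0.189% and 0.0873% in the same order of lines. On chromosome 19, 12 sites between 42.0 and 66.8 kb from the last site had up to 2862 reads in the SETD2 knockout, 1524 with DNMT3B1 and 1365 with DNMT3A2, and levels of 1.45%, 0.285% and 0.574%. Whether these sites are copies of repeated DNA mapped to 1 place was not tested.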

How the results depend on the processing

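The ratio of ends to interior stayed below 1, and DNMT3B1 over DNMT3A2 above 0, under every coverage limit, density measure, interior and end width tried, apart from the DNMT3B1 ratio, which lost its interval below 1 at a minimum of 10 reads (0.972) and was 1.01 against all of the autosome. The SETD2 knockout over DNMT3B1 had an interval below 0 against all of the autosome (-0.049), with CpG content of the 100 kb window matched (-0.036, chosen after seeing the data) and without chromosome 7 (-0.039), and was 0.00082 without chromosome 11.

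The share of end windows called in either direction moved by over 1.5 times, or the balance between the directions turned, in several settings. At a minimum of 10 reads it was 3.09% for the SETD2 knockout and 7.22% for the SETD2 knockout over DNMT3B1. At 2-fold it was 1.35% for the SETD2 knockout, 4.05% for DNMT3B1, 10.1% for DNMT3A2, 3.72% for DNMT3B1 over DNMT3A2 and 1.01% for the SETD2 knockout over DNMT3B1. The SETD2 knockout over DNMT3A2 gave 4.29% with at least 100 sites, and the SETD2 knockout over DNMT3B1 gave 4.4% in windows of 200 kb and 7.36% in windows of 50 kb. Without density adjustment the shares were 13.9%, 16.6% and 33.1% for the SETD2 knockout, DNMT3B1 and DNMT3A2, and 7.09% and 14.9% for the SETD2 knockout over DNMT3B1 and over DNMT3A2. For the SETD2 knockout over DNMT3B1 higher calls outnumbered lower ones at 2-fold, in 200 kb windows and without density adjustment. Its 4.4% and 7.09% are listed for this turn and did not move by over 1.5 times.

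Of the values named for single autosomes, 35 crossed to the other side of no difference under some setting. In 19 the intervals included no difference both before and after, as on chromosome 4 with DNMT3B1 (0.951) and chromosome 16 in the SETD2 knockout over DNMT3A2 (0.066), both without density matching. The other 16 had an interval that excluded it before or after. Without density matching, chromosome 4 was at 0.916 in the SETD2 knockout and 0.926 with DNMT3A2, chromosome 11 at 0.909 with DNMT3B1, chromosome 16 at 0.884 with DNMT3A2, and chromosome 8 at 0.13 in the SETD2 knockout over DNMT3A2. In the last 1 Mb, chromosome 4 was at 0.906 in the SETD2 knockout and 0.923 with DNMT3A2, chromosome 8 at 0.771 (DNMT3B1), 0.681 (DNMT3A2) and 0.37 (SETD2 knockout over DNMT3A2), chromosome 10 at -0.044 in DNMT3B1 over DNMT3A2, and chromosome 11 at 0.978 (DNMT3B1) and 0.037 (SETD2 knockout over DNMT3B1). Against all of the autosome, chromosome 16 was at 0.890 with DNMT3A2 and 0.12 in the SETD2 knockout over DNMT3A2. With CpG content matched, chromosome 8 was at -0.28 in DNMT3B1 over DNMT3A2. The step at 1100 to 1200 kb was 0.950 with DNMT3B1 without chromosome 11. The cause of these changes was not tested.

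No paired analysis was possible because each line came as 1 set of values, and no run was left out either. Windows of 50 to 110 sites rest on few methylated reads and have wide intervals.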
